A study of Mus musculus with 5 samples.

Results

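Dense clusters of accessible sites are stretches of the mouse genome in which many DNase I hypersensitive sites lie close together. They were chosen by position: peaks of the 3 distinct deposited lists that overlapped by at least 1 bp were merged into sites, each site was placed by its midpoint in a fixed bin of 100 kb counted from the start of its chromosome (build mm9), and all sites in bins of 12 or more sites were taken. This gave 7038 sites in 501 bins, which is 13.5% of the 52181 merged sites in 3.72% of the 13458 bins that held any site. They are compared below with the 14104 sites in 7882 bins of 1 to 3 sites, called sparse bins. Since the peak lists themselves chose the bins, scores, widths and sharing between lists are given as a description and carry no test.

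DNase I cuts DNA most readily where nucleosomes are displaced, so hypersensitive sites mark promoters, enhancers, insulators and other elements occupied by regulatory proteins. Such sites are unevenly spread: gene-rich chromatin of open, early-replicating domains carries many, while gene-poor chromatin carries few. Close groups of strong sites are known from locus control regions, large enhancer clusters and neighbourhoods of broadly expressed genes. Myc is a transcription factor that binds mostly at promoters and enhancers that are already accessible.

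The cells were 3T9 fibroblasts, a line of serially passaged mouse embryonic fibroblasts, here derived from E13.5 embryos of mixed strain, homozygous for floxed c-myc and infected in culture with MycER. MycER joins Myc to the hormone-binding part of the estrogen receptor and is switched on by 4-hydroxytamoxifen (4-OHT). All groups carry the floxed alleles and MycER. The series has 5 samples: 2 libraries at 0 h in ethanol, 2 libraries exposed to 4-OHT (400 nM) for 4 h, and an input library of sheared DNA that was not analysed here. The labels do not say whether the cells were a clone or whether libraries came from separate cultures, and the fibroblast label was not checked against marker genes, as no gene annotation of mm9 was used.

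The same 44956 peaks were deposited for replicate 1 of 4-OHT and for replicate 2 of ethanol, so that list carries both treatment labels and is called the double-labelled list. The list of EtOH 0 h replicate 1 (35149 peaks) is called the vehicle list and that of 4-OHT 4 h replicate 2 (47621 peaks) the 4-OHT list. Each treatment thus has 1 list of its own, treatment and library cannot be told apart, and no difference between treatments has a replicate check. Every peak has a score of the peak caller, read here as the negative log10 of its p-value times 10. Scores ran from 80 upwards and piled up at 3100, called the ceiling here. Read depth is unknown, so absence from a list means non-detection only, and a higher score is not a measure of greater accessibility between lists.

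Most bins with any site held few of them, and dense bins formed the far end of a long tail. The median over all bins with a site was 3 sites, 3502 bins held a single site, and the fullest bin held 23. Of the 501 dense bins, 134 held exactly 12 sites, 124 held 13, and 158 held 15 or more. The next bins below the threshold, 186 bins of 11 sites, had 60.4% of their sites in all lists and a median peak width of 1210 bp in the 4-OHT list. The 134 bins of 12 sites had 59.6% and 1291 bp. Median scores in bins of 11 and 12 sites were 341 and 400.3 in the vehicle list, 387 and 402 in the double-labelled list, and 339.9 and 371 in the 4-OHT list. Sites took up a median of 22.7% of the length of a dense bin (range 12.2% to 62.1%) and 2.03% of a sparse bin. The median gap between neighbouring sites of a dense bin was 3055 bp, and 38.4% of gaps were under 2000 bp.

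**Figure D1:**
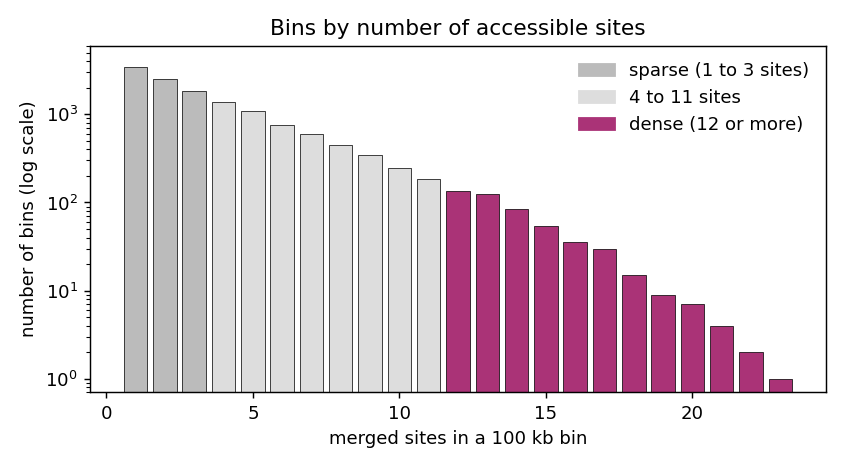
Number of 100 kb bins (vertical axis, log scale) by the number of merged sites they hold (horizontal axis), coloured as sparse (1 to 3 sites), intermediate and dense (12 or more). The number of bins declines from 3502 with 1 site to a single bin with 23.

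The lists differed in their number of sites in dense bins, as they did in their total number of sites. The share was alike. Dense bins held 13.1% of the 33979 vehicle sites, 13.8% of the 44275 double-labelled sites and 13.2% of the 46415 4-OHT sites. A dense bin held a median of 9 sites of the vehicle list (range 1 to 18), 12 of the double-labelled list (7 to 21) and 12 of the 4-OHT list (6 to 20). The 4-OHT list had more sites than the vehicle list in 476 of the 501 bins, fewer in 8 and as many in 17. As the 4-OHT list is the longer and no such count is given for other bins, this is no trait of dense bins. Against the double-labelled list it had more in 206 bins and fewer in 195. Bins with 12 or more sites of 1 list alone numbered 56 in the vehicle list, 298 in the double-labelled list and 311 in the 4-OHT list. All 56 vehicle bins were among those of the double-labelled list (100% of the former and 18.8% of the latter), and 55 were among those of the 4-OHT list (98.2% and 17.7%). The double-labelled and 4-OHT lists shared 224 such bins, 75.2% of the former's and 72.0% of the latter's.

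Dense bins were concentrated on a subset of chromosomes. Chromosome 15 had 24.97% of its sites in dense bins (706 of 2827), chromosome 17 had 23.9% (578 of 2418), chromosome 19 had 23.0% (423 of 1843) and chromosome 11 had 22.2% (934 of 4208). Chromosomes 10, 8, 4 and 2 followed with 19.2%, 19.0%, 18.7% and 15.2%. The share was 12.9% on chromosome 5 and lower on every other chromosome, down to 5.04% on chromosome 6, 4.54% on chromosome 18 and 2.05% on X, where 1 bin of 17 sites was dense. The 9 chromosomes from 15 to 5 in this order held 77.9% of the dense sites and 54.2% of all sites. Chromosomes 11 and 19 are known as gene-rich and X as gene-poor, but gene density was not examined here for any chromosome, and its part was not tested. Chromosomes with like numbers of sites differed in how many were clustered. Chromosome 7 had 4.34 sites per occupied bin, close to the 4.36 of chromosome 4, yet 8.48% of its sites lay in dense bins against 18.7%.

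**Figure D2:**
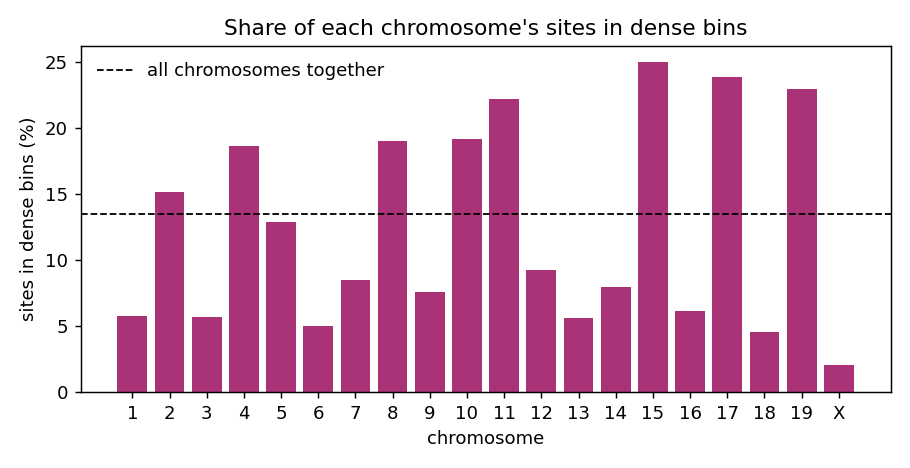
Percentage of each chromosome's merged sites that lie in dense bins (bars), with the value over all chromosomes as a dashed line at 13.5%. Chromosomes 2, 4, 8, 10, 11, 15, 17 and 19 are above the line, and X is lowest at 2.05%.

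The fullest bin of the genome lay on chromosome 10 at chr10:80800001-80900000, with 23 sites taking up 53.8% of its length. The vehicle list had 15 of these sites, the double-labelled list 21 and the 4-OHT list 19, and 14 were in all lists. At 3 of them the score was at the ceiling in all lists, and the first of these lay at chr10:80811627-80815013. The widest site of the bin, at chr10:80869735-80876896, spanned 7162 bp and scored 1151 in the vehicle list and 3100 in both other lists.

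The bins ranked next by number of sites were on chromosomes 10, 11, 5, 15 and 2. Bins chr10:79800001-79900000 and chr11:120600001-120700000 held 22 sites each, and they differed in how many were found in the vehicle list, 11 in the former and 8 in the latter. In the chromosome 11 bin, 12 of the 20 sites of the 4-OHT list had no vehicle peak, more than in any other dense bin. There the strongest and widest site was the same, at chr11:120683323-120687995, at the ceiling in all lists with peaks of 3449 bp (vehicle), 4673 bp (double-labelled) and 3812 bp (4-OHT).

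Bins of 21 sites were chr5:137500001-137600000, chr10:80600001-80700000, chr11:117800001-117900000 and chr15:74500001-74600000. Each had 12 to 15 sites in all lists and 1 or 2 sites at the ceiling in all lists. The chromosome 10 bin held the widest site of the 10 bins, 11465 bp at chr10:80636971-80648435, which was 2 peaks in the vehicle list and 1 in each of the others. The widest site of the chromosome 11 bin was similar in kind, 8834 bp at chr11:117823344-117832177, with 2, 1 and 1 peaks. In the chromosome 5 bin a broad site at chr5:137535066-137540451 differed more between lists. It scored 158 in the vehicle list, 867 in the double-labelled list and 1552 in the 4-OHT list, with 2779, 3858 and 5386 bp of peaks.

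The last of the 10 bins held 20 sites each. They were chr2:167400001-167500000, chr10:79100001-79200000 and chr11:119800001-119900000. In the chromosome 2 bin 12 of 20 sites were in all lists. In the chromosome 11 bin only 6 of 20 were, since the double-labelled list had 19 sites there, the 4-OHT list 9 and the vehicle list 8. No site of that bin was at the ceiling in all lists. Its strongest site, at chr11:119802987-119807509, scored 3089 in the vehicle list and 3100 in both others.

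Dense bins were often neighbours. The bins directly beside a dense bin held a median of 9 sites, 29.7% of them were dense themselves, and 12.7% held 3 sites or fewer. Adjacent dense bins formed 352 runs, of which 272 were single bins, 44 were pairs, 24 were runs of 3 and 8 were runs of 4. In all, 229 of the 501 dense bins (45.7%) were in a run of at least 2 bins.

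The longest run stood apart from every other in length. It covered 20 adjacent bins at chr10:79100001-81100000, with 330 sites in 2 Mb and 12 to 23 sites in each bin. It held 63.5% of the dense sites of chromosome 10, 12.2% of all sites of that chromosome and 4 of the 10 fullest bins. The vehicle list had 184 of the sites, the double-labelled list 279 and the 4-OHT list 281, and 30.96% of the length lay in sites. The run ended within a few bins on either side. The bins before it held 9 sites and then 1, followed by 3 bins of 0, and those after it held 3 and then 0 and 0. Inside it, 180 of 330 sites were in all lists, or 54.5% (Wilson 95% interval 49.2% to 59.8%), and 35 were at the ceiling in all lists (10.6%, against 5.84% over all dense sites). Bin chr10:79600001-79700000 alone had 5 such sites among 13.

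**Figure D3:**
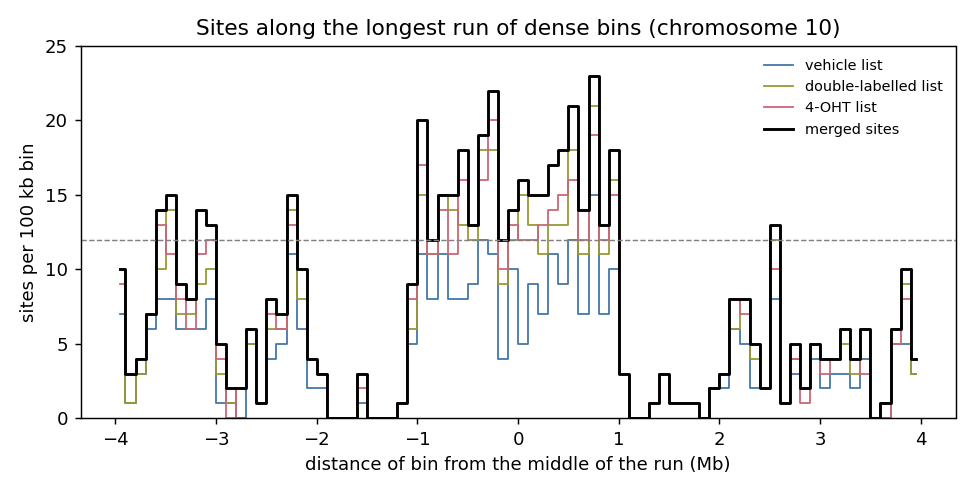
Sites per 100 kb bin (vertical axis) by distance from the middle of the longest run in Mb (horizontal axis), for merged sites (black) and each list (colours), with the threshold of 12 as a dashed line. All 20 bins within 1 Mb of the middle hold 12 to 23 merged sites, and several bins beyond 1 Mb on either side hold 0.

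The next runs were much shorter. A run of 7 bins at chr2:167300001-168000000 held 112 sites, of which 63.4% were in all lists (54.2% to 71.7%). Runs of 5 bins were at chr4:151300001-151800000 with 79 sites (57.0% in all lists, 46.0% to 67.3%) and chr15:75800001-76300000 with 70 sites (41.4%, 30.6% to 53.1%). Among runs of 4 bins the fullest was at chr19:47200001-47600000 with 66 sites (47.0%, 35.4% to 58.8%). The chromosome 15 and 19 runs had wide sites, with median peak widths in the vehicle list of 1843 bp and 1950 bp against 1391 bp over all dense sites. Their sites took up 37.5% and 39.5% of their length. The chromosome 4 run had narrower peaks, its vehicle, double-labelled and 4-OHT medians being 1236 bp, 1187.5 bp and 1175 bp. The chromosome 2 run had medians of 1237 bp, 1475 bp and 1151 bp in the same order, against 1391 bp, 1400 bp and 1315 bp over all dense sites.

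Peaks in dense bins were wider than in sparse bins in every list. The median width per site was 1391 bp in dense and 1172 bp in sparse bins of the vehicle list, a ratio of 1.19. In the double-labelled list the medians were 1400 bp and 1125 bp (ratio 1.24), and in the 4-OHT list 1315 bp and 1052 bp (ratio 1.25). The dense median was above the sparse one on 19 of the 20 chromosomes in each list, and the exception was X with its single dense bin. Width increased step by step with density in the 4-OHT list, from a median of 987 bp at sites alone in their bin to 1294 bp in bins of 12 or 13 sites and 1373.5 bp in bins of 16 or more. Broad sites showed the contrast most. Of the dense sites 317, or 4.50% (4.04% to 5.01%), had a merged width of at least 4000 bp, against 88 of the sparse sites, or 0.624% (0.507% to 0.768%), with 1.7% over all sites.

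The difference in width was present at equal score and was largest among the strongest sites. At scores of 80 to 100 the median was 759 bp in dense and 695 bp in sparse bins of the 4-OHT list (ratio 1.09). At 200 to 500 it was 1199 bp and 1017 bp (1.18), and at the ceiling 2720 bp and 2004 bp (1.36). In the vehicle list the ratio was 1.14 at 80 to 100 and 1.33 at the ceiling, and in the double-labelled list 1.09 and 1.37. At the ceiling the dense median was the larger on all 15 chromosomes with at least 10 sites of each kind in the vehicle list, 16 of 16 in the double-labelled list and 15 of 15 in the 4-OHT list. Sites joined from several peaks of a list were also more frequent in dense bins. The shares were 6.06% against 2.24% in the vehicle list, with 3.23% over all its sites. They were 2.90% against 0.857% in the double-labelled list, with 1.48%, and 4.00% against 1.84% in the 4-OHT list, with 2.49%. At sites with a single peak in every list (3818 dense, 8128 sparse) the width ratios were 1.14, 1.24 and 1.20 in the same order. A caller can join close peaks where sites are dense, and the part of such joining within single peaks was not tested.

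**Figure D4:**
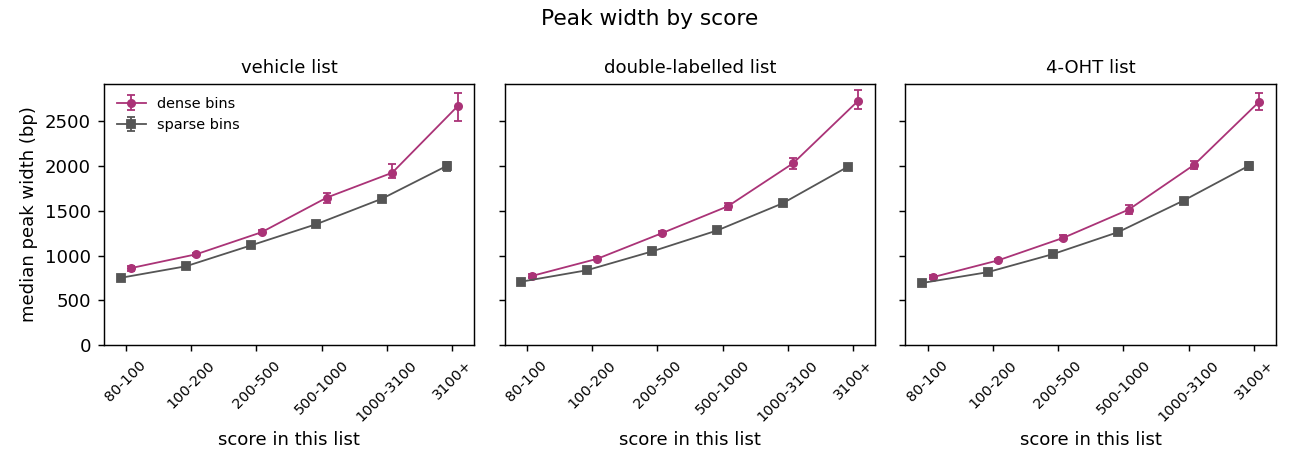
Median peak width in bp (vertical axis) by score class in the same list (horizontal axis), for dense (circles) and sparse bins (squares) in each list. Bars are 95% binomial order-statistic intervals of the median over sites. The dense points lie above the sparse ones in every class and list, and the gap is widest at the ceiling (2668 and 2004 bp in the vehicle list).

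Scores in dense bins were modestly higher at the median. The vehicle list had a median score of 389 in dense bins (quartiles 159 and 1282) and 341 in sparse bins (141 and 1260). The double-labelled list had 421 and 349, and the 4-OHT list 376 and 299. The ranges between the quartiles of the classes overlap almost entirely. The dense median was higher on 14 of 20 chromosomes in the vehicle list and on 19 of 20 in each other list. At sites with a single peak in every list the vehicle medians were 402 and 401, so the difference of that list was not present there, while those of the double-labelled list were 839 and 704 and those of the 4-OHT list 737 and 669. The share of sites at the ceiling had no single direction. It was 9.29% in dense and 8.40% in sparse bins of the vehicle list, with 8.08% over all its sites. In the double-labelled list it was 15.3% and 16.9%, with 14.9% over all sites, and in the 4-OHT list 12.1% and 10.8%, with 10.6%.

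A site at the ceiling in all lists was not a feature of every cluster. Its lack does not mean a lack of strong sites. Bin chr11:119800001-119900000 had none, yet its strongest site scored 3089 in the vehicle list and 3100 in both others. Of the 501 dense bins, 235 had no site at the ceiling in all lists, 164 had 1 and 102 had 2 or more. Over sites, 411 of 7038 dense sites were at the ceiling in all lists, or 5.84% (5.32% to 6.41%), against 5.49% of sparse sites (5.13% to 5.88%) and 5.23% of all sites. The largest number in a bin was 6, at chr8:73300001-73400000, where 12 of 15 sites were in all lists and vehicle scores had a median of 1970, double-labelled ones 1176 and 4-OHT ones 898. The vehicle list had 12 sites there and the others 14 each, so these medians cover different sites. At the 6 sites in all lists and below the ceiling, log2 ratios to the vehicle score had the other direction. Their medians were 0.88 for the double-labelled list and 0.61 for the 4-OHT list.

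With all scores pooled, sites in dense bins were found in all lists as often as sites in sparse bins. The share was 60.3% in each class, 4241 of 7038 dense sites (59.1% to 61.4%) and 8506 of 14104 sparse sites (59.5% to 61.1%), with 61.1% over all sites. The difference, dense minus sparse, was −0.05 percentage points (Newcombe 95% interval −1.45 to 1.35). These intervals cover counting over sites, and neighbouring sites are not independent. Every site of a single list counted towards the choice of dense bins, so this share is not independent of that choice. At equal score the shares of the classes differed, in opposite directions between lists, as given below. On 12 chromosomes the dense share was the higher, and on 8 the lower. Chromosome 15, with the largest share of its sites in dense bins, had 52.7% of its dense sites in all lists, the lowest of any chromosome. Its sparse sites had 56.2%, also the lowest among chromosomes with dense bins. Sites of a single list made up 23.2% of dense and 23.0% of sparse sites, with 22.2% over all sites.

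The lists took part differently. Sites of the double-labelled list alone made up 10.6% of dense sites (743 of 7038) and 7.13% of sparse sites (1005 of 14104), with 8.53% over all sites. Sites of the 4-OHT list alone made up 11.5% (808) and 14.1% (1987), with 12.3% over all sites. Sites of the vehicle list alone made up 1.12% (79) and 1.74% (246), with 1.34% over all sites. Of the vehicle sites, 2.83% of the dense ones had no peak in the double-labelled list (2.38% to 3.36%), against 6.12% of the sparse ones (5.65% to 6.62%) and 4.39% of all vehicle sites. Of the 4-OHT sites, 13.95% of the dense and 18.2% of the sparse ones had no peak in the double-labelled list, with 15.5% among all 4-OHT sites. The double-labelled list thus covered dense bins more fully than sparse bins, measured against either other list. Its own sites also counted towards the choice of dense bins.

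At equal score, weak sites of the double-labelled list were less often shared when they lay in dense bins. At scores of 100 to 200 in that list, 24.4% of 1350 dense sites were in all lists (22.2% to 26.7%), against 42.5% of 2926 sparse sites (40.7% to 44.3%) and 35.3% of all sites. The dense share was the lower on 18 of 19 chromosomes with at least 10 sites of each kind. At 200 to 500 the shares were 75.8% and 87.6%, with 83.3% over all sites, and the dense share was the lower on 19 of 19 chromosomes. At 80 to 100 they were 7.59% and 15.4%, with 11.7% over all sites. In the 4-OHT list the gap was smaller, 8.20% and 8.49% at 80 to 100 with 9.15% over all sites, 29.9% and 32.2% at 100 to 200 with 31.5%, and 77.9% and 82.4% at 200 to 500 with 82.4%. In the vehicle list it had the other direction, 68.9% dense and 60.9% sparse at 80 to 100 with 66.2% over all sites, 91.0% and 85.9% at 100 to 200 with 89.4%, and 99.9% and 98.9% at 200 to 500 with 99.5%. From a score of 1000 upwards, every site of the vehicle and double-labelled lists was in all lists, in dense and sparse bins alike. Sites of a single list count towards the 12 sites of a dense bin, so the choice of bins used the same unshared sites. Scores also differ between lists at the same site, as given below. The part of either in these shares and chromosome counts was not tested.

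**Figure D5:**
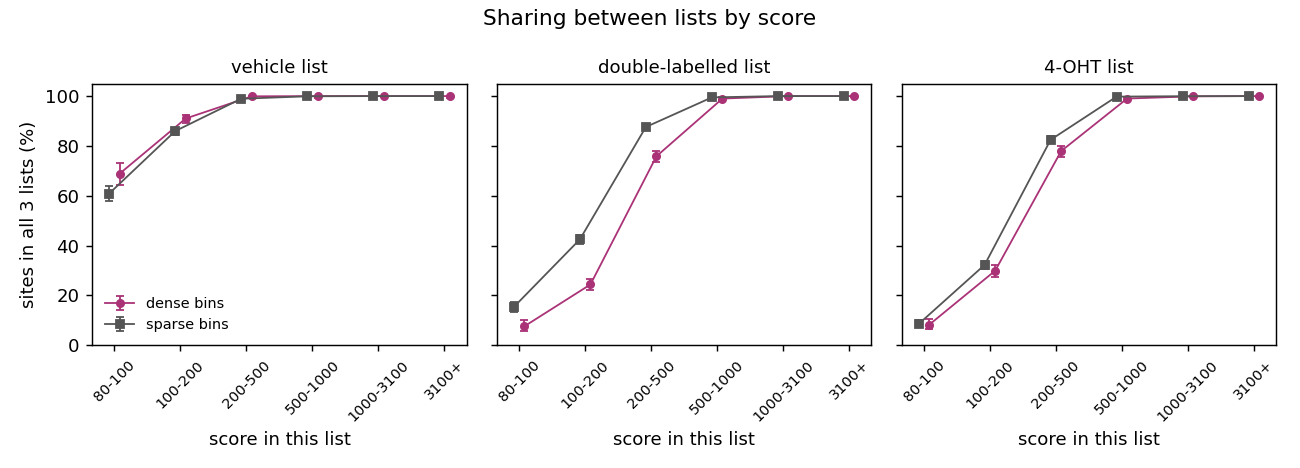
Percentage of a list's sites that have a peak in all 3 lists (vertical axis) by score class in that list (horizontal axis), for dense (circles) and sparse bins (squares). Bars are Wilson 95% intervals. The gap is largest in the double-labelled list at 100 to 200 (24.4% dense, 42.5% sparse), and the vehicle list has the opposite order at low scores.

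The vehicle and 4-OHT lists were compared by the sites that each lacked in clusters and outside them. Of the 4-OHT sites in dense bins, 1839 of 6127 had no vehicle peak, or 30.0% (28.9% to 31.2%), against 30.3% of 12670 in sparse bins (29.5% to 31.1%) and 29.6% overall. The difference was −0.32 percentage points (−1.72 to 1.08). In the other direction, 168 of 4456 vehicle sites in dense bins had no 4-OHT peak, or 3.77% (3.25% to 4.37%), against 4.64% of 9255 in sparse bins (4.23% to 5.08%) and 3.87% of all vehicle sites, a difference of −0.87 points (−1.55 to −0.14). For the double-labelled list against the vehicle list the dense share was the larger, 29.1% against 24.8% with 26.6% overall. With all lists cut to the length of the shortest (35149 peaks, by score), 14.3% of the 4-OHT sites in dense bins and 12.1% in sparse bins had no vehicle peak, a difference of 2.17 points (0.62 to 3.84). At equal score the dense share was also the larger. At 4-OHT scores of 100 to 200 it was 68.5% in dense and 62.6% in sparse bins, with 64.5% over all sites, and at 200 to 500 it was 21.8% and 15.4%, with 16.4%. Sites without a vehicle peak also counted towards the choice of dense bins, and the part of that in these shares was not tested.

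Scores at sites in all lists and below the ceiling were compared between lists. In dense bins (3283 sites) the log2 ratio of the 4-OHT score to the vehicle score had a median of 0.79 (quartiles 0.43 and 1.18). In sparse bins (6528 sites) it was 0.67 (0.32 and 1.05), and 0.73 over all 25157 such sites. For the double-labelled list over the vehicle list the medians were 1.00 dense, 0.76 sparse and 0.86 over all such sites. The 4-OHT score was more than double the vehicle score at 35.0% of dense, 27.8% of sparse and 31.1% of all such sites. For the double-labelled list these shares were 50.3%, 34.6% and 40.7%. Both comparisons share the vehicle list. The spread within each class is several times the difference between them. At vehicle scores of 100 to 200 the double-labelled over vehicle median was 1.09 in dense and 0.63 in sparse bins. At 500 to 1000 it was 1.00 and 0.97, and at 1000 to 3100 it was 0.79 and 0.81. For the 4-OHT list the corresponding medians were 0.90 and 0.76, 0.74 and 0.66, and 0.55 and 0.50. The limit below the ceiling kept 644 of 659 dense and 1181 of 1198 sparse vehicle sites at 500 to 1000. At 1000 to 3100 it kept only 373 of 902 and 752 of 1936. It also bounds the ratio from above there, so that class cannot show whether dense and sparse bins differ at strong sites.

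Bins with at least 5 such sites, 412 in all, had bin medians of the 4-OHT over vehicle log2 ratio from −0.31 to 1.63, with a median of 0.80. The bin median was above 0 in 408 of them and below 0 in 4. This was no trait of dense bins alone. Over single sites the ratio was above 0 at 91.7% of dense, 89.6% of sparse and 90.4% of all such sites. The bins at the ends of this order are named after their values were seen. The highest were chr5:135000001-135100000 (1.63 over 8 sites) and chr8:124600001-124700000 (1.54 over 7 sites). The lowest were chr1:135900001-136000000 (−0.31 over 6 sites) and chr17:3000001-3100000 (−0.27 over 5 sites). The double-labelled over vehicle values were 1.88 and 1.54 in the first 2 bins and 0.36 and −0.14 in the last 2.

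Some clusters were singled out after their values were seen, because they show how unlike each other dense bins are. In 2 bins every site was in all lists. One, chr3:96000001-96100000, had 13 sites, 4 of them at the ceiling in all lists, with a median score of 1085 in the vehicle list, 1338 in the double-labelled list and 1476 in the 4-OHT list. The other, chr9:63500001-63600000, had 14 sites covering 38.9% of the bin and no site at the ceiling in all lists, with median scores of 468, 806 and 762.

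The bin with the lowest share was chr13:69600001-69700000, where 1 of 13 sites was in all lists. That site, at chr13:69672889-69675229, was at the ceiling in each list. The other 12 had no vehicle peak. The double-labelled list had 7 of them and the 4-OHT list 9, with scores between 83.6 and 328. This cluster therefore consisted of 1 strong site and weak sites around it that the vehicle list did not detect. Such make-up was not the rule: fewer than 50% of sites were in all lists in 91 of the 501 dense bins.

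The dense bin of X had the opposite make-up. At chrX:47900001-48000000, 17 sites lay within 69.991 kb, 16 of them in all lists. The sites were uniformly narrow, with widths from 894 to 1730 bp and a median of 1226 bp, and the median gap between them was 1900 bp. Scores were intermediate, from 226 to 2088 in the vehicle list (median 690), 108 to 1957 in the double-labelled list (median 930) and 343 to 1857 in the 4-OHT list (median 868). No site reached the ceiling in any list, and the neighbouring sites outside the span lay in bins below the threshold. No other bin of X was dense.

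The broadest cover was in bin chr15:76000001-76100000, where 12 sites took up 62.1% of the length, much of it in a single site of 22960 bp. It is part of the chromosome 15 run described above. Bin chr19:47300001-47400000 followed with 20 sites, a widest site of 11453 bp and 59.4% of its length in sites. In it the vehicle list had 9 sites, the double-labelled list 17 and the 4-OHT list 15.

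Bins with more vehicle than 4-OHT sites were few, and the clearest was the first bin of chromosome 17 with any site, chr17:3000001-3100000. It held 13 sites, of which the vehicle list had 11, the double-labelled list 10 and the 4-OHT list 7. The strongest of them, at chr17:3080399-3085346, scored 2267 in the vehicle list, 2667 in the double-labelled list and 3193 in the 4-OHT list. The widest, 8338 bp at chr17:3025923-3034260, scored 687, 832 and 596. The other 7 bins of this kind had 1 site more in the vehicle list than in the 4-OHT list.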

How the data were processed

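DNase-seq peak lists of 4 libraries were analysed. Per the submitters' processing notes, BWA 0.6.2, SAMtools, MACS 1.4.1 and build mm9 were used, without stated settings. The deposited value of each peak is a score given by the authors' caller, read from the tool's name and the values. How the input entered the calls, any equalising of depth, and whether peaks were called per library are not given in the sources used here.

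Peaks of the 3 distinct lists were merged, and the merge was checked against bedtools 2.31.1. A site's score in a list is its highest peak score and its width there the sum of its peaks. Starts count from 1. The scripts were tested on simulated lists of 11600 sites in dense and sparse bins, of which 100% were recovered. The simulated sites lay too far apart to merge, so the joining of close sites was not simulated. Shares carry Wilson and their differences Newcombe 95% intervals, and medians binomial order-statistic intervals. Intervals of a median score difference or a width ratio join the opposite limits of the 2 median intervals. They are therefore wider than 95% intervals. All cover counting over sites only. Python 3.11.15, numpy 2.4.6, pandas 2.3.3, scipy 1.17.1 and matplotlib 3.10.9 were used.

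Bins named were the 10 with the most sites, with the strongest and the widest site of each, and the 5 longest runs. Others named were chosen after their values were seen. Genes and sequences are not reported, as no mm9 annotation or genome was used here. The members and lists were chosen with earlier results of these data known. Alternatives were bins shifted by 50 kb, thresholds of 10 and 15, leaving out each list, equal list length, scores of at least 100, merging within 500 bp, another reference class and classes of equal score.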

Additional observations from a re-analysis of the deposited data

How the results depend on the processing

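The width ratio stayed above 1 and the median score difference above 0 in every list under the alternatives run, whereas both differences in shares changed sign under some. The interval of the score difference nevertheless included 0 under several. In the vehicle list these were thresholds of 10 and 15, leaving out the double-labelled list, scores of at least 100 and single-peak sites. In the double-labelled list it was equal length, and in the 4-OHT list single-peak sites. Of the recomputed values, 78 stayed within the intervals of the main values (for the number of sites, within 1.5 times) and 28 did not. The 7038 dense sites became 11574 with a threshold of 10, 2628 with 15, 2441 at equal list length, 4411 with scores of at least 100 and 4241 with merging within 500 bp, and 4818 to 6880 when 1 list was left out. The width ratio was 1.21 in the 4-OHT list with a threshold of 10, and 1.30 in the double-labelled list with a threshold of 15 and with merging within 500 bp. Against all sites outside dense bins it was 1.14 (vehicle), 1.17 (double-labelled) and 1.17 (4-OHT). At sites with a single peak in every list, chosen after seeing the data, it was 1.14 (vehicle) and 1.20 (4-OHT). The median score difference was 109.95 in the 4-OHT list at equal length and 113 in the double-labelled list with merging within 500 bp. At single-peak sites it was 0.43 (−47.9 to 41.8) in the vehicle list and 135 in the double-labelled list. The dense minus sparse share in all lists was 1.72 points at equal length and 2.40 with merging within 500 bp, and −2.40 to 0.93 when 1 list was left out, the lowest without the 4-OHT list. By score in the double-labelled list it was −7.77 (80 to 100), −18.1 (100 to 200) and −11.8 (200 to 500). The share of 4-OHT sites absent from the vehicle list differed by 2.17 points at equal length, −2.14 with merging within 500 bp, and 2.56, 5.90 and 6.43 in these score classes of the 4-OHT list. The main values of both differences in shares, −0.05 and −0.32 points, have intervals that include 0. Under some alternatives the intervals excluded 0, in both directions. For the share in all lists they were 0.74 to 4.05 with merging within 500 bp and −3.92 to −0.91 without the 4-OHT list. For absence from the vehicle list they were 0.62 to 3.84 at equal length and −3.75 to −0.49 with merging within 500 bp. Intervals in some of the score classes excluded 0 as well. The cause was not tested. A minimum overlap of peak and site, as planned, cannot differ from the main result since a peak lies inside its site, and 50% overlap with the strongest peak was run instead. No paired analysis was possible because 1 list was deposited under both treatments and no test was made. With depth unknown, absence from a list shows no closed chromatin.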
